A study of Mus musculus with 30 samples.

Results

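Adding 5-fluorouracil (5-FU) to the heme oxygenase-1 (HO-1) inhibitor KCL-HO-1i was examined in spontaneous mammary tumours of mice, by comparing the 5 tumours given both drugs (KCL-HO-1i/5-FU) with the 5 given KCL-HO-1i alone. These 10 libraries were chosen by their titles from the 30 of the series, which hold 6 groups of 5 tumours. All animals were on the background FVB/N-Tg(MMTV-PyVT)634Mul/J, in which the MMTV promoter drives the polyoma middle T oncogene in the mammary epithelium, and the labels give their genotype as WT, with no further allele. Both groups received KCL-HO-1i at 25 µmol/kg daily by intraperitoneal injection, and the KCL-HO-1i/5-FU group also received 5-FU at 40 mg/kg every 4 days. The labels give 72 h of treatment before collection, while the methods of the study give a shorter time, and they state no age. The reference pair used below, tumours given 5-FU alone and tumours given vehicle, came from the same strain and schedule and shares no library with the main comparison. No mouse code number of the labels is common to both groups of that pair. Within the pair, 5-FU therefore cannot be told apart from code. Each library is bulk RNA of tumour from a mouse of its own, by the mouse codes of the labels, so a level is an average over malignant, stromal and immune cells, and fewer cells of a type cannot be told apart from less RNA per cell.

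5-FU is a pyrimidine analogue. Its products inhibit thymidylate synthase, which starves DNA synthesis of thymidine, and are built into RNA and DNA. Damage of this kind stabilises p53, a transcription factor that raises Cdkn1a (the cyclin-dependent kinase inhibitor p21) and its own inhibitor Mdm2, and p21 holds the cell cycle so that genes of DNA replication and mitosis are repressed through E2F sites and through a short promoter element called CHR. HO-1, encoded by Hmox1, breaks heme down to biliverdin, carbon monoxide and iron. In these tumours it is known from perivascular macrophages that carry the receptor LYVE-1, and KCL-HO-1i acts on the enzyme.

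Adding 5-FU gave tumours with more transcript of p53 target genes and less transcript of mitosis and DNA replication genes. Cdkn1a was 4.15-fold higher with no overlap between the groups, 13 of 32 p53 targets were higher, and 30 of 36 mitosis genes and 21 of 39 DNA replication genes were lower. The p53 count was 9 without KCL-HO-1i/5-FU replicate 3, and the mitosis and replication counts were 18 and 10 without replicate 2 of that group. With the number of the mouse code as a covariate the 3 counts were 6, 2 and 1. Over all genes, that fit called 813 higher and 650 lower, so its mitosis and replication counts did not stand out from all genes. Genes of cholesterol synthesis (14 of 24), oxidative phosphorylation (34 of 44), heme synthesis (6 of 17) and white fat (22 of 30) were also lower, but these counts fell to 8, 9, 3 and 2 when one tumour of the KCL-HO-1i group, replicate 4, was left out. Skeletal muscle genes were lower in 30 of 34 cases with that tumour and in 27 without it, but in 1 by limma-voom, which gives uneven libraries less weight. Milk protein genes were lower in 4 of 15 cases with or without that tumour, while the summed level of the list overlapped between the groups. A gene is called higher or lower here when its unadjusted p was under 0.05 in edgeR (quasi-likelihood fit over all 30 libraries), while the p printed beside single genes is the one adjusted over all genes by the Benjamini-Hochberg method. Of 13663 genes tested, 1020 (7.47%) were higher and 1288 (9.43%) lower by that measure, so a list with about such shares does not stand out from all genes. The lists were chosen with earlier results of these data known, so a larger share is a description and not a test. No gene passed after adjustment in edgeR, where the smallest adjusted p was 0.087, while DESeq2 called 155 higher (1.16% of those with an adjusted p) and 235 lower (1.76%), and limma-voom called 15 higher (0.11%) and 6 lower (0.0439%). Every one of the 390 genes called by DESeq2 had an unadjusted edgeR p under 0.05. Libraries of the groups did not overlap for 254 higher genes (1.86%) and 348 lower genes (2.55%).

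The 10 libraries held between 10835346 and 13416374 counts, with 14710 to 15614 genes detected in each. The mammary epithelial label was borne out by Krt8 at 567 to 1549.8 CPM (read counts scaled to the size of the library) and Epcam at 619 to 1359.9 CPM. Some libraries stood apart. KCL-HO-1i replicate 4 had 9.69% of its counts in mitochondrially encoded genes against 1.44% to 3.51% in the other libraries of its group. Its markers of other tissue were also far higher. Over all tested markers, summed skeletal muscle levels ran from 117 to 7130 CPM in the KCL-HO-1i tumours and from 60.2 to 194 CPM in the KCL-HO-1i/5-FU tumours. White adipocyte markers summed to between 1730 and 37800 CPM against 1440 to 2920 CPM, and brown adipocyte markers to between 44.9 and 3370 CPM against 30.9 to 61.7 CPM. KCL-HO-1i/5-FU replicate 3 had the highest collagen, macrophage and blood vessel levels of its group and the highest Hmox1. The part of these tissues in the results below was not tested beyond leaving a tumour out. With the former tumour left out, 852 genes (6.18%) were higher and 813 (5.9%) lower, and with the latter left out 783 (5.67%) and 1203 (8.71%).

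**Figure D1:**
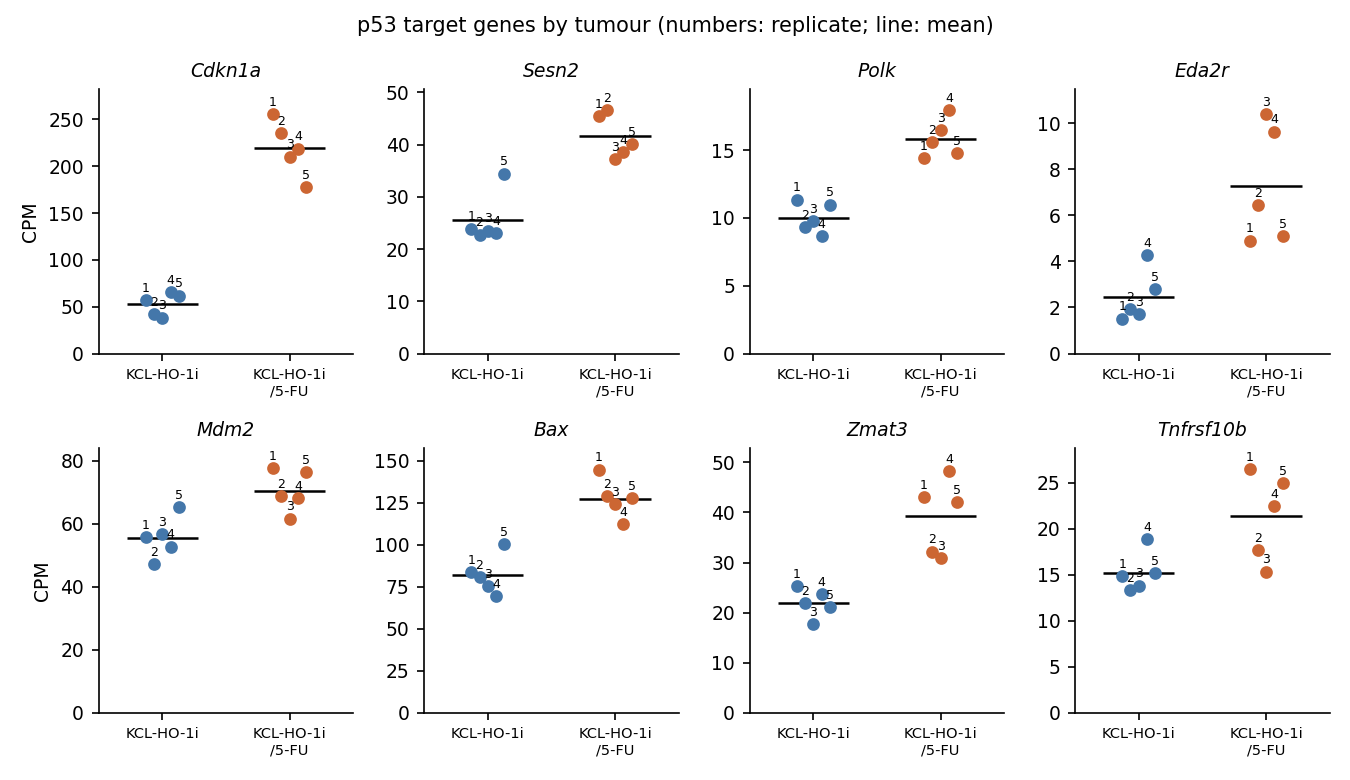
Levels of 8 p53 target genes in the 10 tumours, in CPM on linear axes from 0, with a point for each tumour numbered by replicate, KCL-HO-1i on the left of each panel and KCL-HO-1i/5-FU on the right, and a line at the group mean. Cdkn1a sits between 178 and 256 CPM in the KCL-HO-1i/5-FU tumours, above all KCL-HO-1i tumours, which reach 65.5 CPM.

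Cdkn1a, the p53 target that encodes p21 and halts the cell cycle, measured 57.2, 41.7, 38.4, 65.5 and 61.8 CPM in KCL-HO-1i replicates 1 to 5. In KCL-HO-1i/5-FU replicates 1 to 5 it measured 256, 236, 210.3, 219 and 178 CPM. The lowest tumour with 5-FU was well above the highest without it, and the tumours with 5-FU lay close together. The log2 fold change was 2.05 ± 0.45 (SE), adjusted p = 0.102, with a DESeq2 adjusted p of 0.00195 and a limma-voom adjusted p of 0.00599. Against vehicle, 5-FU alone gave a log2 difference of 0.31 ± 0.44 (SE), adjusted p = 0.999, with group means of 128 and 104 CPM. The difference between these effects, tested as an interaction, was 1.75 ± 0.62 (SE), adjusted p = 0.482, which did not pass adjustment in edgeR. The KCL-HO-1i tumours, from which the fold with the inhibitor is counted, had a mean of 52.9 CPM.

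Sesn2, a stress-responsive inhibitor of mTORC1 signalling, stood at 23.9, 22.7, 23.5, 23.1 and 34.4 CPM in the KCL-HO-1i tumours and 45.4, 46.6, 37.3, 38.5 and 40 CPM with 5-FU added. The groups did not overlap, and replicate 5 was the highest of the KCL-HO-1i group. Its log2 fold change was 0.70 ± 0.16 (SE), adjusted p = 0.102, with adjusted p-values of 0.00806 by DESeq2 and 0.00599 by limma-voom. Polk, a DNA polymerase that copies past damaged bases, read 11.3, 9.32, 9.78, 8.65 and 11 CPM without and 14.4, 15.6, 16.5, 17.9 and 14.8 CPM with 5-FU, again without overlap, at a log2 difference of 0.66 ± 0.16 (SE), adjusted p = 0.102. Eda2r, a death receptor family member, was scarce, with 1.51, 1.94, 1.72, 4.28 and 2.8 CPM in the KCL-HO-1i tumours and 4.9, 6.45, 10.4, 9.63 and 5.09 CPM in the KCL-HO-1i/5-FU tumours. It too did not overlap, at 1.58 ± 0.45 (SE), adjusted p = 0.113 on the log2 scale.

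Mdm2, the ubiquitin ligase that degrades p53, differed by much less. Its values were 55.8, 47.1, 56.6, 52.7 and 65.3 CPM in the KCL-HO-1i tumours and 77.6, 68.8, 61.6, 68.1 and 76.34 CPM with 5-FU. Only the lowest tumour with 5-FU, replicate 3, fell within the range of the other group. The log2 fold change was 0.34 ± 0.11 (SE), adjusted p = 0.129, and the interaction with the 5-FU effect in the absence of the inhibitor was 0.47. The following members were named after their values were seen. Bax, which permeabilises mitochondria during apoptosis, ran from 69.3 to 100.2 CPM without 5-FU and from 112 to 145 CPM with it, at a log2 difference of 0.64 ± 0.23 (SE), adjusted p = 0.166. Zmat3, an RNA-binding protein of the p53 pathway, ran from 17.7 to 25.3 CPM and from 30.8 to 48.3 CPM, at 0.84 on the log2 scale, and Tnfrsf10b, the TRAIL receptor, was 0.49. Gdf15, a secreted stress cytokine, was near its floor in most tumours and reached 6.78 CPM in KCL-HO-1i/5-FU replicate 3 against 0.359 to 0.994 CPM in the tumours without 5-FU.

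In all, 27 of the 32 p53 targets had a positive log2 fold change, with a median of 0.38 against 0.01 over all genes tested. The 13 that were higher also included Ddit4l, Bbc3, Trp53inp1 and Plk2, and none was lower. The 8 members whose groups did not overlap included Btg2, which did not pass the test. Phlda3, an inhibitor of Akt chosen here after its values were seen, was among the members that did not pass. It measured 20.4, 20.3, 25.9, 100.04 and 20.8 CPM in the KCL-HO-1i tumours and 55, 44.5, 53.4, 48.1 and 44.3 CPM in the KCL-HO-1i/5-FU tumours. Apart from KCL-HO-1i replicate 4 the groups did not overlap, and its log2 fold change was 0.39 ± 0.37 (SE), adjusted p = 0.625 with that library and 1.17 without it. The mean log2 CPM of the list was 3.98, 4.08, 4.17, 4.48 and 4.23 in the KCL-HO-1i tumours and 4.62, 4.57, 4.75, 4.76 and 4.56 in the KCL-HO-1i/5-FU tumours, again with no overlap. Trp53 itself, the gene of p53, ran from 81.5 to 97.9 CPM and from 90.4 to 116 CPM, and did not pass the test.

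As a group, the 5-FU alone tumours did not show this pattern against vehicle. In that comparison 226 genes (1.65% of those tested) were higher and 306 (2.24%) lower. None of the 32 targets was higher there, and the median log2 fold change was -0.05. The 5-FU alone tumours were uneven, with summed p53 target levels of 1100 to 1840 CPM and a median of 1140 CPM. Vehicle tumours ran from 1110 to 1480 CPM and KCL-HO-1i/5-FU tumours from 1470 to 1660 CPM. The highest 5-FU alone tumour was thus above every tumour of both these groups. In the interaction, which called 4.03% of all genes higher, 7 of the 32 targets were higher, with a median of 0.45. With KCL-HO-1i/5-FU replicate 3 left out, 9 targets were higher with the inhibitor present, and 6 were with the number of the mouse code as a covariate. Codes 65 and 70 held tumours of both groups. Within code 65, with 1 KCL-HO-1i and 2 KCL-HO-1i/5-FU tumours, 24 of 32 targets were higher with 5-FU, and within code 70, with 2 and 1, 25 were. These tumours are part of the main comparison and genes are not replicates, so the counts are not a separate test. The share of all genes that were higher within a code was not counted.

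Mitosis genes were lower in the KCL-HO-1i/5-FU tumours, and all 36 tested had a negative log2 fold change, from -1.20 to -0.22. The 30 that were lower (83.3% of the list) had a part in each step of division: kinases of mitotic entry and the spindle checkpoint (Cdk1, Plk1, Aurka, Aurkb, Ttk, Bub1 and Bub1b), cyclins (Ccna2, Ccnb1 and Ccnb2), kinetochore and spindle proteins (Ndc80, Nuf2, Knl1, Cenpa, Tpx2 and Kif11), and the machinery that ends mitosis (Cdc20 and Ube2c). The 6 that did not pass were Anln, Espl1, Cenpf, Cenpe, Top2a and Birc5. Many mitotic genes carry the CHR, the letters TTTGAA, close to their transcription start, where the DREAM and B-MYB complexes bind. The promoters of the lowest members by p that hold it are shown with the 30 bases around the element, 5′ to 3′ on the strand of the gene, from RefSeq sequences of GRCm38.p6, and the capitals mark the CHR on either strand.
Ndc80, chr17:71526811-71526840, minus strand: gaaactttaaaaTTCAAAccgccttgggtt
Bub1b, chr2:118598231-118598260, plus strand: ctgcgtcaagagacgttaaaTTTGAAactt
Hmmr, chr11:40733412-40733441, minus strand: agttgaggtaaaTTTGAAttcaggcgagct
Ttk, chr9:83834684-83834713, plus strand: cagcggggaaatTTCAAAcgtgtttccgga
Aurka, chr2:172370521-172370550, minus strand: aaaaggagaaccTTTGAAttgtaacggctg
Ccnb2, chr9:70421533-70421562, minus strand: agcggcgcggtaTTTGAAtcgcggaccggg
Ube2c, chr2:164769888-164769917, plus strand: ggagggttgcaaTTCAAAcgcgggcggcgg
Cdc20, chr4:118437344-118437373, minus strand: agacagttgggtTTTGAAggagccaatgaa

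Windows of 300 bases, from 250 before to 50 after the start, were at hand for 30 of the 36 genes, as 32 windows. TTTGAA or its complement was in 24 of them (75%), against 17.9% of all 32851 windows and 12% of those of tested genes. The match nearest the start, taken once for each of 22 genes, lay at a median of position 254 of the window. That choice favours positions close to the start. The CCAAT box (letters CCAAT, either strand), which often stands upstream of a CHR, was in 71.9% of the mitosis windows and 37.4% of all. The whole window of Hmmr shows both kinds of element, with 5 CCAAT letters, each read on the opposite strand as ATTGG, before a single CHR, all in capitals.
Hmmr, chr11:40733388-40733687, minus strand: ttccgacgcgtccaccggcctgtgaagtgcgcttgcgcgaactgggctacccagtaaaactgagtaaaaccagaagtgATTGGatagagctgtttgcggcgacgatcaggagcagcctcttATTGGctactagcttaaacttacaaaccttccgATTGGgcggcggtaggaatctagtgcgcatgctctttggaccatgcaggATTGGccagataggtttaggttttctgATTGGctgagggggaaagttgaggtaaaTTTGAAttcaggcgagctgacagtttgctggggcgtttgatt

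Members were lower with and without a CHR. Of the 22 genes with it, 18 were lower, with a median log2 fold change of -0.98. Of the 8 with a window but no such letters, 6 were lower, with a median of -0.86, and all 6 genes without a window were lower. A match of letters does not show that a factor binds there. Among windows of the p53 targets, 12.1% held the CHR.

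Ndc80, a kinetochore protein that holds microtubules, measured 25.1, 17.1, 20.1, 20.5 and 23.8 CPM in the KCL-HO-1i tumours and 9.2, 3.34, 6.52, 20.7 and 9.24 CPM in the KCL-HO-1i/5-FU tumours. Of the tumours with 5-FU only replicate 4 reached the level of the other group, and replicates 2 and 3 were the lowest. The log2 fold change was -1.12 ± 0.35 (SE), adjusted p = 0.126. Ccna2, the cyclin of S phase and mitotic entry, was at 137, 90.7, 80.1, 106 and 107 CPM without 5-FU and at 52.2, 17.5, 26.1, 77.1 and 58.6 CPM with it. Here no tumour overlapped, at a log2 difference of -1.17 ± 0.38 (SE), adjusted p = 0.132. Pbk, a mitotic kinase, ran from 45.5 to 64.9 CPM without and from 12.3 to 45 CPM with 5-FU, so that the groups just failed to overlap, at -0.97 ± 0.31 (SE), adjusted p = 0.132.

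Bub1b, a spindle checkpoint kinase, read 72.6, 50, 53.2, 67.4 and 45.9 CPM in the KCL-HO-1i tumours and 27.2, 10.1, 15.3, 49 and 24.4 CPM with 5-FU, so that only replicate 4 of the latter overlapped. Its log2 fold change was -1.20 ± 0.40 (SE), adjusted p = 0.135. Mki67, the gene of the proliferation marker Ki-67 and named after its values were seen, stood at 180.5, 175, 97.4, 229.9 and 124 CPM and at 66.3, 30, 54.3, 161 and 83.3 CPM. Its groups overlapped, since KCL-HO-1i/5-FU replicate 4 was above 2 of the KCL-HO-1i tumours, and the log2 fold change was -1.03 ± 0.41 (SE), adjusted p = 0.206. Hmmr and Aurka, named in the same way, were -1.08 and -0.98. Top2a and Birc5 did not pass, and here KCL-HO-1i/5-FU tumours were also above the KCL-HO-1i range, replicates 1 and 4 for Top2a and replicates 4 and 5 for Birc5. Top2a, a topoisomerase, measured 154, 111, 91.5, 139.8 and 119 CPM and 168, 29.1, 46.5, 169.9 and 77.4 CPM, and Birc5, the chromosomal passenger survivin, measured 50.5, 38.7, 39.6, 42.8 and 50.4 CPM and 26.2, 10.1, 15.2, 80.1 and 58.7 CPM. Both lie on chromosome 11, whose genes are described further on.

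The mean log2 CPM of the mitosis list was 5.61, 5.15, 5.06, 5.47 and 5.25 in the KCL-HO-1i tumours and 4.49, 3.12, 3.75, 5.31 and 4.53 in the KCL-HO-1i/5-FU tumours. The tumours with 5-FU were far from alike, and replicate 4 was within the range of the other group while its Cdkn1a was as high as in its fellows. Between single genes, 9 members did not overlap at all. 5-FU alone gave a median of -0.26 against vehicle, with all 36 members negative and none lower by the test. Summed mitosis levels were uneven with 5-FU alone, from 484 to 1850 CPM, against 1390 to 2060 CPM with vehicle. The interaction called 1 of 36 lower, against 4.51% of all genes, so a difference between the 5-FU effects with and without the inhibitor was not shown. The count of 30 went to 18 without KCL-HO-1i/5-FU replicate 2, to 19 without replicate 3 and to 2 with the mouse code number as a covariate, when all 36 stayed negative with a median of -0.85. The fit with the code called 650 of all genes lower, so 2 of 36 did not stand out. All 36 were lower with 5-FU within mouse code 65 and within mouse code 70, by medians of -0.71 and -1.36 on the log2 scale. Code 65 sets 2 KCL-HO-1i/5-FU tumours against 1 KCL-HO-1i tumour, and code 70 sets 1 against 2. These tumours are part of the main comparison and genes are not replicates, so this is not a separate test.

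**Figure D2:**
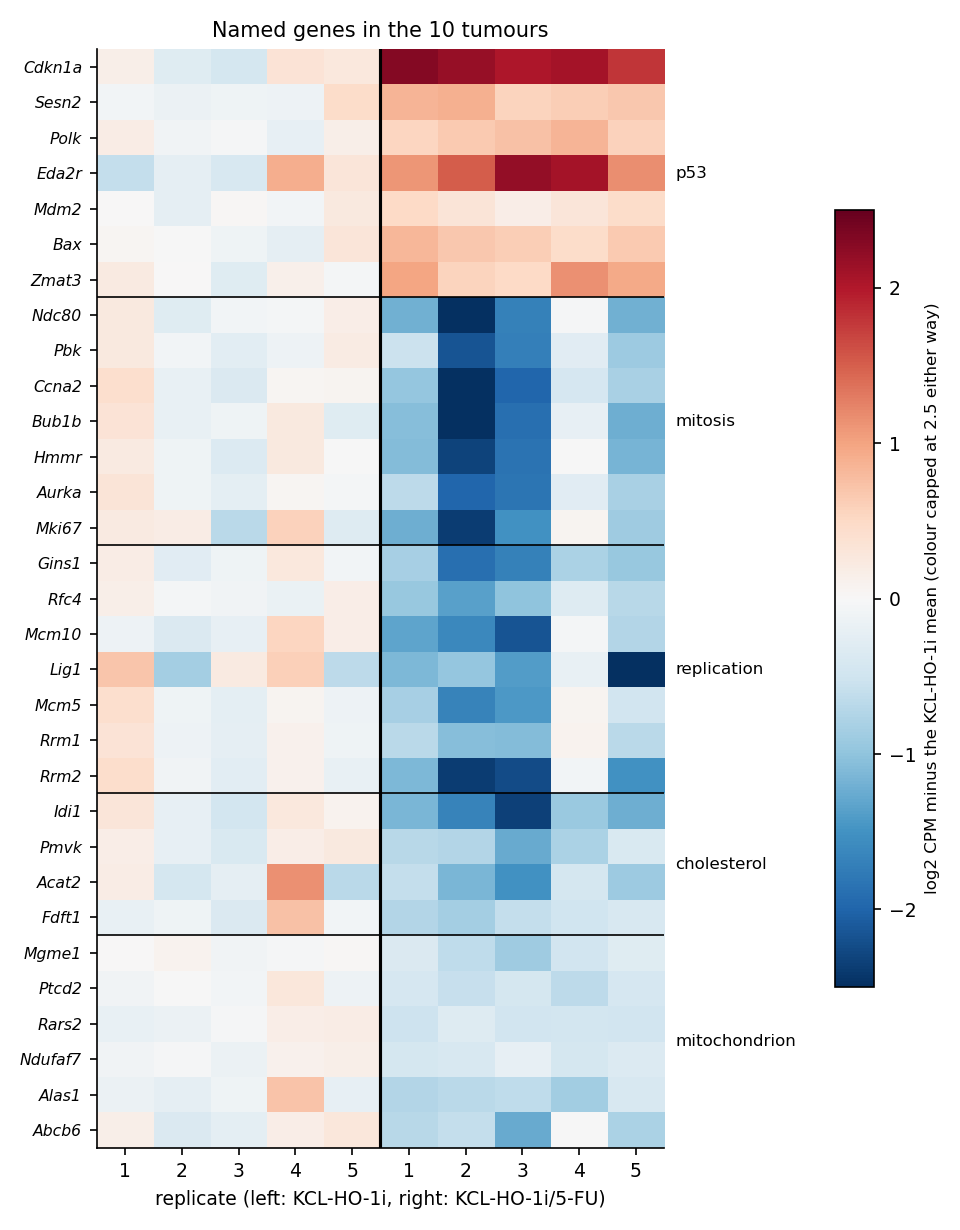
Heat map of 31 named genes (rows) in the 10 tumours (columns), coloured by log2 CPM minus the mean of the gene over the KCL-HO-1i tumours, with the colour scale held at 2.5 in either direction while values run from -4.26 to 2.30. The p53 targets are red in all KCL-HO-1i/5-FU tumours, and the mitosis and replication genes are mostly blue, most deeply in replicate 2 or 3 (Lig1 in replicate 5) and palest in replicate 4.

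DNA replication genes were lower as well, again most in KCL-HO-1i/5-FU replicates 2 and 3 and least in replicate 4, with a median closer to 0. None of the 39 had a fold change above 0, 21 were lower (53.8%), and the median was -0.51. The lower genes covered the helicase and its loading (Mcm2, Mcm3, Mcm4, Mcm5, Mcm6, Mcm10, Cdc45, Cdt1, Orc6, Gins1 and Gins4), primase and polymerase alpha (Prim1 and Pola2), and the clamp, its loader and the ligation of fragments (Pcna, Rfc4, Fen1 and Lig1). Genes of this step are known targets of E2F factors. The 8 letters TTTCGCGC, a core of the E2F site, were in 7 of 37 windows of the list (18.9%), against 0.323% of all windows and 0.592% of those of tested genes. The segments that hold it are given in the same way, with the E2F core in capitals.
Lig1, chr7:13278841-13278870, plus strand: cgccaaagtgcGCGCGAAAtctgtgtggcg
Uhrf1, chr17:56304117-56304146, plus strand: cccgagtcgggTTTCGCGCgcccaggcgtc
Mcm6, chr1:128359793-128359822, minus strand: gtatgcttttgGCGCGAAAagtgcgtgcgg
Mcm5, chr8:75109345-75109374, plus strand: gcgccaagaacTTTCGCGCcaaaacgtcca
Orc1, chr4:108579416-108579445, plus strand: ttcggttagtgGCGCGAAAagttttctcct
Mcm7, chr5:138171849-138171878, minus strand: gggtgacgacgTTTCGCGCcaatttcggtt
Rfc3, chr5:151651200-151651229, minus strand: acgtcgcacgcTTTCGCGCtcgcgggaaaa

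Of these 7 genes, Lig1, Uhrf1, Mcm5 and Mcm6 were lower, and Orc1, Mcm7 and Rfc3 did not pass. Gins1, a subunit of the replicative helicase, measured 16.9, 12.2, 13.8, 17.8 and 14.2 CPM in the KCL-HO-1i tumours and 8.37, 4, 4.58, 8.56 and 7.67 CPM in the KCL-HO-1i/5-FU tumours. The groups did not overlap, at a log2 difference of -1.17 ± 0.37 (SE), adjusted p = 0.126 and a DESeq2 adjusted p of 0.0495. Rfc4, of the clamp loader, also did not overlap, with 34.4, 30.1, 29.3, 27.6 and 34.6 CPM without and 16.1, 12.1, 15.5, 24.9 and 19.3 CPM with 5-FU, at -0.83 ± 0.26 (SE), adjusted p = 0.128. Lig1, the ligase that joins Okazaki fragments, was uneven in both groups, at 60.8, 20.6, 43.6, 56.5 and 23.7 CPM and at 17.1, 19.1, 14.2, 32.8 and 1.96 CPM. KCL-HO-1i/5-FU replicate 5 was far below the rest, and replicate 4 lay within the other group. Its log2 fold change was -1.27 ± 0.43 (SE), adjusted p = 0.143. Mcm10 was -1.03 and Mcm5, named after its values were seen, -0.75.

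The mean log2 CPM of the replication list was 5.13, 4.80, 4.74, 4.94 and 4.86 in KCL-HO-1i tumours and 4.47, 3.85, 3.95, 4.86 and 4.41 with 5-FU. Replicate 4 of the KCL-HO-1i/5-FU group was again the sole tumour in the range of the other group. 5-FU alone had a median of 0 against vehicle, with no member lower, and the interaction called 4 of 39 lower, with a median of -0.45, against 4.51% of all genes. Summed replication levels ran from 890 to 2040 CPM with 5-FU alone and from 1320 to 1790 CPM with vehicle. Without KCL-HO-1i/5-FU replicate 2 or 3 there were 10 lower members, without KCL-HO-1i replicate 1 11, and with the mouse code number as a covariate 1, when 37 of 39 were negative. The fit with the code called 650 of all genes lower, so 1 of 39 did not stand out. Within codes 65 and 70, 38 and 37 of 39 were lower with 5-FU, in tumours that the main comparison already holds.

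Genes of the DNA damage checkpoint and of repair were lower too, and none was higher. Of 34, 15 were lower (44.1%) with a median of -0.37. They included Chek1, the checkpoint kinase upstream of Cdk1, Rad51ap1 of homologous recombination, the Fanconi anaemia genes Fanci and Fanca, and Parp1. Fanci measured 14.8, 9.84, 11.1, 13.4 and 9.57 CPM in the KCL-HO-1i tumours and 5.8, 2.89, 4.14, 10.3 and 6.66 CPM with 5-FU. Only replicate 4 with 5-FU overlapped, and the log2 fold change was -0.98 ± 0.28 (SE), adjusted p = 0.113 with a DESeq2 adjusted p of 0.034. Rad51ap1 did not overlap, from 8.21 to 14.3 CPM and from 3.11 to 7.82 CPM, at -1.01 ± 0.31 (SE), adjusted p = 0.122. Xrcc6 and Nbn, of double-strand break repair, moved less, at -0.27 and -0.32. The count of 15 became 9 with KCL-HO-1i replicate 4 left out, while leaving out KCL-HO-1i/5-FU replicate 2 gave 9, replicate 3 of that group 6, replicate 4 of that group 24, and KCL-HO-1i replicate 1 5.

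The genes on which 5-FU acts, or which activate or degrade it, were examined next. Of 38, 9 were lower (23.7%) and none higher, with a median of -0.26. Tyms, the thymidylate synthase that 5-FU inhibits, measured 20.9, 21.9, 17.2, 15.6 and 26.6 CPM in the KCL-HO-1i tumours and 19.1, 10.8, 14, 16.8 and 17.6 CPM with 5-FU. The groups overlapped and Tyms did not pass, at -0.39 ± 0.24 (SE), adjusted p = 0.426. Ribonucleotide reductase, which makes deoxynucleotides, was lower in both subunits. Rrm2, the subunit tied to S phase, stood at 124, 85, 75.2, 98.4 and 79.5 CPM and at 41.8, 17.4, 19.3, 87.2 and 31.8 CPM, with KCL-HO-1i/5-FU replicate 4 inside the range of the other group and the rest at about or under 42 CPM. Its log2 fold change was -1.23 ± 0.44 (SE), adjusted p = 0.164, and that of Rrm1 was -0.63 ± 0.24 (SE), adjusted p = 0.18. Dkc1, the pseudouridine synthase that modifies uridines of ribosomal RNA, did not overlap, with 83.1, 90.6, 80.3, 80.6 and 74.2 CPM and 62.4, 56.1, 55.7, 58.2 and 58 CPM, at -0.49 ± 0.16 (SE), adjusted p = 0.134.

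Umps, which converts 5-FU to its nucleotide, read 63.5, 61.6, 55, 54.6 and 69.3 CPM without and 39.8, 48.3, 34.7, 61.5 and 48.9 CPM with the drug. All but replicate 4 of the latter were below every KCL-HO-1i tumour, at -0.38 ± 0.16 (SE), adjusted p = 0.222. Upp1, of another route of activation, and Dpyd, which degrades 5-FU, did not pass. Upp1 ran from 1.4 to 3.78 CPM and from 1.41 to 5.64 CPM, and Dpyd from 4.7 to 17.8 CPM and from 4.93 to 37.7 CPM with its highest value in KCL-HO-1i/5-FU replicate 3. Uck1, a uridine and cytidine kinase, was lower at -0.68, with 210.1 CPM in KCL-HO-1i replicate 4 against 59.8 to 75.4 CPM in the rest of its group. The remaining lower members were Shmt1, Shmt2, Dut and Tdg. The count of 9 was 3 when KCL-HO-1i replicate 1 was left out, and 4 when replicate 3 with 5-FU was.

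**Figure D3:**
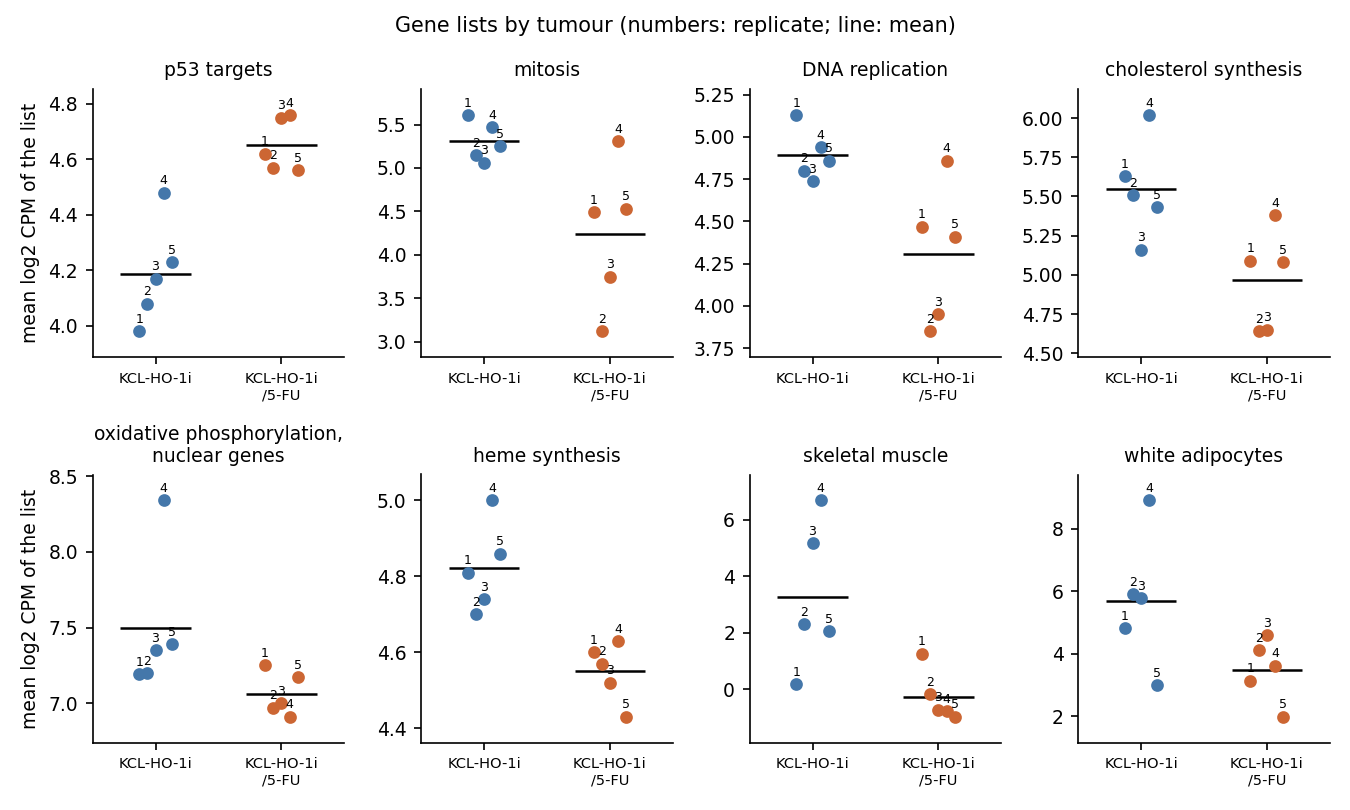
Mean log2 CPM of 8 gene lists in each tumour, with a panel for each list, points numbered by replicate, KCL-HO-1i tumours on the left, KCL-HO-1i/5-FU tumours on the right, and a line at the group mean; the vertical axes do not start at 0. The p53 and heme synthesis lists do not overlap between groups, while in the mitosis and replication lists KCL-HO-1i/5-FU replicate 4 lies in the range of the KCL-HO-1i tumours.

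Cholesterol synthesis genes were lower as a group, with 14 of 24 lower (58.3%), none higher and a median of -0.54. Idi1, the isomerase that makes the building block of all isoprenoids, measured 166, 116, 97.8, 161 and 143 CPM in the KCL-HO-1i tumours and 61.1, 42.3, 26.8, 70.5 and 57.5 CPM with 5-FU. The groups were well apart, with KCL-HO-1i/5-FU replicate 3 the lowest, and the log2 fold change was -1.41 ± 0.32 (SE), adjusted p = 0.102 with a DESeq2 adjusted p of 0.00353. Pmvk, a kinase of the mevalonate route, was at 74, 57, 50.6, 73.2 and 78 CPM and 40.7, 39.7, 27.6, 38.2 and 50.6 CPM, where the groups nearly met, for -0.76 ± 0.20 (SE), adjusted p = 0.109. Fdft1, squalene synthase, was -0.66 without overlap. Acat2 was -1.03 and reached 177 CPM in KCL-HO-1i replicate 4. Fdps, Mvd, Mvk, Lss, Cyp51, Hmgcs1 and Insig1 were among the other lower members.

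5-FU alone against vehicle also had 6 of these 24 cholesterol genes lower, against 2.24% of all genes, with a median of -0.40. The interaction called 3 of 24 lower, against 4.51% of all genes. With KCL-HO-1i replicate 4, the tumour rich in fat genes, left out, 8 of 24 were lower. In the 20 windows of this list at hand, the CCAAT box was in 80% against 37.4% of all, and the sterol element TCACNCCAC was in 1.

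Nuclear genes of oxidative phosphorylation were lower in 34 of 44 cases, but the size of that count rested on KCL-HO-1i replicate 4. Ndufa10, of complex I, measured 114, 101, 127, 350.1 and 103 CPM in the KCL-HO-1i tumours and 104, 73.2, 77.8, 90.7 and 80 CPM with 5-FU, so replicate 4 alone was several times the rest. Its log2 fold change was -0.90 ± 0.23 (SE), adjusted p = 0.109. Uqcrfs1, the Rieske protein of complex III, was at 179, 162, 185, 477 and 195 CPM and at 159.9, 135, 94.3, 144 and 152 CPM, with no overlap even when replicate 4 is set aside, at -0.81 ± 0.22 (SE), adjusted p = 0.111. Ndufa9, of complex I too, was -0.64 with the same peak. The median of the list was -0.50 with all tumours and -0.25 without replicate 4, when 9 of 44 were lower. The single member that was higher, Atp5h on chromosome 11, measured 192 to 298 CPM and 222 to 557 CPM. The interaction, which holds KCL-HO-1i replicate 4 as well, called 31 of the 44 lower, against 4.51% of all genes. Its count for this list was not taken without that tumour. The 5-FU alone tumours had a median of 0.08 against vehicle.

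Several less abundant genes of mitochondrial gene expression differed in all tumours and not in replicate 4 alone. Mgme1, an exonuclease that maintains mitochondrial DNA, read 19.5, 20.4, 18.1, 19 and 19.7 CPM in the KCL-HO-1i tumours and 15, 12.5, 10.5, 13.8 and 15.7 CPM with 5-FU. The KCL-HO-1i values were nearly alike and none overlapped, at -0.52 ± 0.11 (SE), adjusted p = 0.102, with adjusted p-values of 0.00233 by DESeq2 and 0.0452 by limma-voom. Ptcd2, which processes mitochondrial transcripts, was at 33, 35, 33.4, 42.6 and 32.2 CPM and 26.2, 23.5, 25.9, 22.3 and 26.2 CPM, also apart, at -0.51 ± 0.11 (SE), adjusted p = 0.102. Rars2, the mitochondrial arginyl-tRNA synthetase, was -0.46 ± 0.10 (SE), adjusted p = 0.102 without overlap, and Ndufaf7, a complex I assembly factor, was -0.36 ± 0.10 (SE), adjusted p = 0.111. A pair of lists was therefore formed after the data were seen. Of 78 mitochondrial ribosomal protein genes 36 were lower and 2 higher, with a median of -0.27, and of 17 mitochondrial aminoacyl-tRNA synthetases 8 were lower. With KCL-HO-1i replicate 4 left out the lower counts were 20 and 4, and with KCL-HO-1i/5-FU replicate 4 left out they were 20 and 5. The synthetase count was also 5 without KCL-HO-1i/5-FU replicate 3. The share of counts from mitochondrially encoded genes was 2.61% with 5-FU and 3.83% without, a difference of -1.21 percentage points (two-sided exact permutation test, p = 0.698), and 0.251 without replicate 4 (exact p = 0.619).

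Heme synthesis, which supplies the substrate of HO-1 and starts and ends in mitochondria, was lower in 6 of 17 genes (35.3%), with a median of -0.28. Alas1, the rate-limiting synthase, measured 17.8, 16.8, 18.3, 32.5 and 17.1 CPM in the KCL-HO-1i tumours and 11.9, 12.4, 12.7, 10.9 and 15 CPM with 5-FU. The groups did not overlap, replicate 4 of the KCL-HO-1i group was by far the highest, and the log2 fold change was -0.71 ± 0.24 (SE), adjusted p = 0.144. Abcb6, Tmem14c, Abcb10 and Alad were among the other lower members, and the count was 3 without KCL-HO-1i replicate 4. The mean of the list was 4.81, 4.70, 4.74, 5.00 and 4.86 log2 CPM in the KCL-HO-1i tumours and 4.60, 4.57, 4.52, 4.63 and 4.43 with 5-FU. Tfrc, the transferrin receptor that brings iron into cells and is named after its values were seen, measured 155, 163, 124, 224 and 139.6 CPM and 79.2, 52.9, 34.6, 73.9 and 73.6 CPM. All tumours with 5-FU were below all without, at -1.36 ± 0.34 (SE), adjusted p = 0.108, and it was called by DESeq2 (adjusted p = 0.00991) and limma-voom (adjusted p = 0.0452).

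Hmox1, the target of the inhibitor, was measured at 86.4, 106, 299, 225 and 47.8 CPM in the KCL-HO-1i tumours and at 189, 63.6, 1198, 222 and 107 CPM in the KCL-HO-1i/5-FU tumours. KCL-HO-1i/5-FU replicate 3 was far above all others, and the remaining tumours of both groups overlapped widely. The log2 fold change was 1.22 ± 0.63 (SE), adjusted p = 0.33, and -0.07 without that replicate. The means with 5-FU alone and with vehicle were 38.8 and 49.4 CPM. Hmox2, the constitutive isoform, was even in both groups, from 65.1 to 77.8 CPM and from 57.7 to 79.4 CPM, at 0.05 ± 0.11 (SE), adjusted p = 0.868. Slc40a1, the iron exporter ferroportin, reached 250 CPM in the same replicate 3 and otherwise ran from 20.2 to 49.2 CPM, for 1.28 ± 0.44 (SE), adjusted p = 0.147. Slc7a11, the cystine importer, behaved alike, with 17.0 CPM in that tumour and at most 4.53 CPM in all others. Of 27 genes of heme and oxidative stress, 3 were higher (Slc40a1, Slc7a11 and Mafg) and 1 lower (Tkt). These shares were 11.1% and 3.7%, against 7.47% and 9.43% of all genes. Without KCL-HO-1i/5-FU replicate 3, 1 was higher and 3 were lower, and without KCL-HO-1i replicate 4 none was lower. Leaving out other tumours gave 1 to 3 lower.

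Lyve1, the receptor that marks perivascular macrophages and also lymphatic endothelium, measured 7.75, 5.07, 15.8, 34.5 and 0.247 CPM in the KCL-HO-1i tumours and 0.754, 1.04, 0.617, 1.98 and 0 CPM with 5-FU. KCL-HO-1i replicate 5 had 3 reads and lay below most tumours with 5-FU, of which replicate 5 had none. The log2 fold change was -3.84 ± 1.32 (SE), adjusted p = 0.149, with a DESeq2 adjusted p of 0.0392, and -3.01 without KCL-HO-1i replicate 4, the highest tumour. 5-FU alone gave 0.86 against vehicle, and the interaction was -4.70 ± 1.78 (SE), adjusted p = 0.486. Timd4, a receptor of resident macrophages, was at 0.861, 1.27, 1.64, 4.87 and 0.0825 CPM and 0, 0.667, 0.528, 0.165 and 0 CPM, at -2.63 ± 1.15 (SE), adjusted p = 0.243. Mrc1, the mannose receptor CD206, was spread over 3.05 to 77.4 CPM and over 2.11 to 72.4 CPM and did not pass, at -0.66 ± 0.85 (SE), adjusted p = 0.74. Gas6, a ligand of macrophage receptors that other cells also make, measured 261, 269.9, 381, 218 and 305 CPM and 494, 662, 875, 329 and 659 CPM, with replicate 4 of the latter inside the range of the former, at 1.07 ± 0.35 (SE), adjusted p = 0.133.

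Of the 22 markers of LYVE-1 perivascular macrophages 4 were lower (Lyve1, Timd4, Cd209g and Cd209f) and 3 higher (Gas6, Slc40a1 and Marco), so the list did not move one way. The lower count was 1 without KCL-HO-1i replicate 4 or without replicate 1 or 5 with 5-FU, and 2 without KCL-HO-1i replicate 3 or without replicate 4 with 5-FU, and with KCL-HO-1i/5-FU replicate 3 left out 1 was higher. Among 29 general macrophage markers, 1 was higher and none lower. The higher count was 0 without KCL-HO-1i replicate 1, 4 or 5 or without replicate 3 with 5-FU, 2 without replicate 4 with 5-FU, and 4 without KCL-HO-1i replicate 3. The member higher with all tumours was Spp1, osteopontin, which tumour cells make as well, at 3255, 5876, 9360.3, 2378 and 3654 CPM and 10788, 12447, 16289, 5310.1 and 14827 CPM. In 4 of the 5 tumours with 5-FU it was above every tumour without, at 1.28 ± 0.60 (SE), adjusted p = 0.279.

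T cell transcripts were few in every tumour. Cd8a, the CD8 coreceptor, gave 0.287, 0.745, 0.896, 0 and 0.577 CPM in the KCL-HO-1i tumours and 0.754, 0.964, 1.76, 1.4 and 1.25 CPM with 5-FU, which is 33 and 76 reads in all. The groups overlapped and it did not pass, at 1.25 ± 0.66 (SE), adjusted p = 0.335. 5-FU alone against vehicle gave 1.17, and the interaction was 0.08. Gzmb, a granule protease of killer cells, ran from 0.895 to 6.27 CPM and from 2.37 to 5.46 CPM, at 0.30. Ifng had at most 1 read in any of the 10 tumours and was not tested. Of 19 T and cytotoxic cell markers tested, 1 was higher (Tnfrsf9, with 3.99 CPM in KCL-HO-1i/5-FU replicate 5) and 1 lower (Cd247). Either share, 5.26%, was under that of all genes, 7.47% and 9.43%. Neither call held throughout, since leaving out KCL-HO-1i replicate 5 or KCL-HO-1i/5-FU replicate 5 left none in either direction, and the higher one was also lost without KCL-HO-1i replicate 1, 2 or 4.

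Of 28 chemokines and their receptors, 3 were higher (10.7%) and 1 was lower (3.57%), against 7.47% and 9.43% of all genes. Cxcl1, which draws neutrophils, was 1.79, 3.88, 2.09, 2.49 and 5.03 CPM and 5.8, 3.49, 8.9, 4.86 and 10.6 CPM, and Cxcl5, of the same kind, had 16.7 CPM in KCL-HO-1i/5-FU replicate 3 and under 1 CPM in every other tumour. Cx3cl1 was 0.69 and Ccl6 -1.63. No member was higher without KCL-HO-1i/5-FU replicate 3, 1 was without KCL-HO-1i replicate 1, and the lower count was 0 to 2 with a tumour left out. Ccl21a, the CCR7 ligand, had at most 4.14 CPM in these tumours and did not pass, at a log2 difference of 1.14 ± 1.56 (SE), adjusted p = 0.757. Cxcl12 ran from 11.8 to 128 CPM and from 12.8 to 136 CPM, and Cxcl14 from 14.4 to 77.3 CPM and from 8.93 to 55.2 CPM, neither of which passed.

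**Figure D4:**
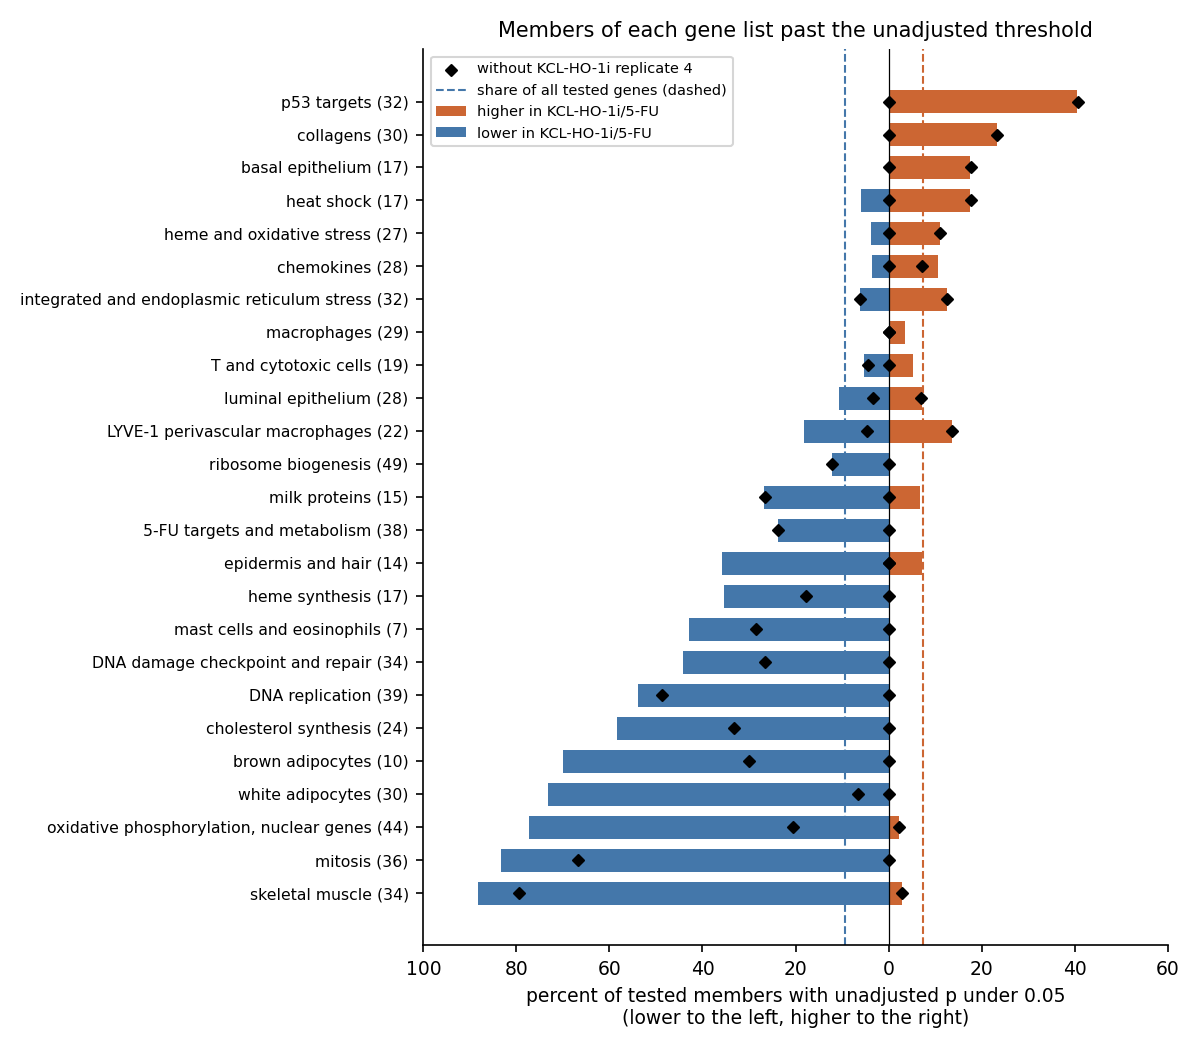
Percent of the tested members of each described list with an unadjusted edgeR p under 0.05, higher to the right and lower to the left, with bars for all 10 tumours and diamonds for the fit without KCL-HO-1i replicate 4. Dashed lines mark all genes tested, at 7.47% higher and 9.43% lower, and the oxidative phosphorylation and white adipocyte bars shrink most when that tumour is left out.

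Skeletal muscle genes were lower in 30 of 34 cases (88.2%), with a median log2 fold change of -5.78. Actn3, of fast fibres, measured 1.08, 7.75, 84.8, 132 and 3.3 CPM in the KCL-HO-1i tumours and 0.829, 0.371, 0, 0.494 and 0.235 CPM with 5-FU. The muscle level was uneven among the KCL-HO-1i tumours, high in replicates 3 and 4 and near the other group in replicate 1, and the log2 fold change was -6.83 ± 1.89 (SE), adjusted p = 0.111. The mean of the list was 0.19, 2.30, 5.18, 6.68 and 2.06 log2 CPM without 5-FU and 1.26, -0.18, -0.72, -0.78 and -0.97 with it. Without replicate 4, 27 of 34 were still lower, while limma-voom, which gives uneven libraries less weight, called 1. Mybpc1, Mybpc2 and Neb, of the sarcomere, were also highest in replicates 3 and 4, and Mybpc1 had 940 reads in the KCL-HO-1i tumours and 2 with 5-FU.

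Fat genes were highest in KCL-HO-1i replicate 4. Gpd1, which makes glycerol phosphate for triglycerides, measured 174, 187, 274, 4067 and 167 CPM and 110.3, 127, 81.4, 116 and 78.6 CPM. The groups did not overlap even without replicate 4, and the log2 fold change was -3.25 ± 0.75 (SE), adjusted p = 0.102. Of 30 white adipocyte genes 22 were lower, with a median of -3.11, and 2 were lower without replicate 4, with a median of -1.21. Lipe and Dgat2 reached 579.6 and 703 CPM there. Among 10 brown adipocyte genes, 7 were lower, and 3 without replicate 4. Ucp1, the uncoupling protein of brown fat, had 16903 reads in that tumour, 464 in replicate 3, 40 in the other 3 KCL-HO-1i tumours and 5 in all tumours with 5-FU, and Elovl3 had 1573 reads against none. Cidea, Cox7a1, Fabp3 and Ppara, among the 12 lower genes with the smallest p, had the same peak, at 744, 142, 220.3 and 39.7 CPM in replicate 4. Hair and skin genes were of this kind too, since 5 of 14 were lower and none was without replicate 4, although 8 were without KCL-HO-1i replicate 2 or 5 or without replicate 1 with 5-FU. Tchh, Krt71, Krt27 and Dsg1a, of hair follicles and skin, had 518, 34.4, 41.3 and 14.3 CPM in that tumour and at most 4.11 CPM in the other 9.

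Casein genes were not tied to a single tumour. Csn2, beta-casein, measured 192, 1659.8, 1689.7, 1507 and 115 CPM in the KCL-HO-1i tumours and 196, 24.1, 19.7, 1.89 and 0.783 CPM with 5-FU. KCL-HO-1i replicates 2, 3 and 4 were high, and replicates 1 and 5 stood near KCL-HO-1i/5-FU replicate 1, at -4.41 ± 1.83 (SE), adjusted p = 0.218. Csn1s2a did not overlap, from 21.2 to 729 CPM and from 1.07 to 17.4 CPM, at -5.55 ± 1.83 (SE), adjusted p = 0.135. Csn1s1 and Glycam1 were -3.41 and -5.88. Of 15 milk protein genes, 4 were lower and 1 (Spp1) higher, and 4 were lower with any one tumour left out. Summed over the list, Spp1 included, levels ran from 13400 to 29000 CPM in the KCL-HO-1i tumours. With 5-FU the sums ran from 17100 to 33800 CPM, so the totals overlapped. Of 7 mast cell and eosinophil genes tested, 3 proteases were lower (Mcpt4, Tpsb2 and Cma1), and 6 genes were without KCL-HO-1i replicate 5. Mcpt4 read 2.94, 3.8, 9.41, 9.05 and 0.495 CPM and 0.603, 1.26, 0.528, 0.329 and 0 CPM, with KCL-HO-1i replicate 5 as low as the tumours with 5-FU. Gata2, a transcription factor of these cells, did not pass.

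Tumour epithelium and matrix showed smaller differences. Of 28 luminal genes 2 were higher (Erbb2 and Krt7) and 3 lower (Cited1, Areg and Pgr), near the shares of all genes. None was lower without KCL-HO-1i replicate 5, and 1 was without KCL-HO-1i replicate 4 or without replicate 1 or 4 with 5-FU, while 1 was higher without replicate 1 or 5 with 5-FU. Of 17 basal genes, 3 were higher (Krt14, Mylk and Itgb4) and none lower, with a median of 0.74. Krt14, a basal keratin, was at 893 CPM in KCL-HO-1i/5-FU replicate 1 and otherwise at 36.8 to 248 CPM, and Krt17 peaked in the same tumour, at 315 CPM, and did not pass. Mylk, the kinase of smooth muscle contraction, was 11.3, 17, 11.4, 23 and 7.67 CPM and 65.6, 15, 118, 21.6 and 13.9 CPM, high in replicates 1 and 3 with 5-FU, at 1.73 ± 0.59 (SE), adjusted p = 0.147. Of 30 collagens, 7 were higher (23.3%) and none lower. Col11a1, a fibrillar collagen, measured 150.0, 179.5, 83.7, 59 and 133 CPM and 597, 217, 329, 406 and 730.1 CPM. It did not overlap, and the log2 fold change was 1.91 ± 0.75 (SE), adjusted p = 0.196. Col9a3 also did not overlap, from 88.5 to 151 CPM and from 200.4 to 242 CPM, at 0.78 ± 0.30 (SE), adjusted p = 0.184. Col27a1 and Col4a5 were 1.84 and 0.68, with peaks in KCL-HO-1i/5-FU replicates 1 and 3. Without KCL-HO-1i/5-FU replicate 3, 3 collagens were higher.

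Stress genes did not move one way. Of 32 genes of the integrated and endoplasmic reticulum stress response, 4 were higher (Sesn2, Slc7a11, Nupr1 and Slc3a2). Lower were 2, Asns and Shmt2. These shares, 12.5% and 6.25%, were near the 7.47% and 9.43% of all genes. Without KCL-HO-1i/5-FU replicate 3 the counts were 2 and 1. The lower count was also 1 without KCL-HO-1i replicate 1 or 2 or without replicate 2 or 5 with 5-FU. Asns, asparagine synthetase and a target of ATF4, was 56, 56.8, 51.5, 55.3 and 59.8 CPM and 36.3, 35, 17.5, 44.7 and 37 CPM, without overlap, at -0.71 ± 0.26 (SE), adjusted p = 0.161. Of 17 heat shock genes, the inducible Hspa1a, Hspa1b and Dnajb1 were higher and the mitochondrial chaperone Hspd1 was lower. None was higher without KCL-HO-1i/5-FU replicate 1, and 1 was without replicate 5 of that group or without KCL-HO-1i replicate 2 or 3. None was lower without KCL-HO-1i replicate 4 or without replicate 2 or 3 with 5-FU, and 3 were without KCL-HO-1i replicate 2 or without replicate 1 or 5 with 5-FU. Hspa1a measured 40.5, 25.9, 27.3, 25.5 and 32.9 CPM and 106, 40, 31.2, 42.1 and 64.8 CPM. Replicates 2 and 3 with 5-FU were inside the other range, and the log2 fold change was 0.90 ± 0.34 (SE), adjusted p = 0.181. 5-FU alone had -0.61, and the interaction was 1.51. Of 49 ribosome biogenesis genes, 6 were lower (12.2%, near the 9.43% of all genes), among them Dkc1, Ltv1, Mphosph10 and Nop10, with a median of -0.19, and 3 were without KCL-HO-1i/5-FU replicate 2.

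Many genes with the smallest p lay close together on the genome. Of the 12 higher genes named by that rule, 8 are on chromosome 11 (GRCm38 coordinates): Strada at chr11:106162974-106193634, Smurf2 at chr11:106820061-106920747, Cog1 at chr11:113649178-113669331, Fam104a at chr11:113661319-113684189, D11Wsu47e at chr11:113684153-113699375, Cdc42ep4 at chr11:113726850-113752543, Grb2 at chr11:115644045-115708597 and Sap30bp at chr11:115933578-115965534. Cdc42ep4, an effector of the GTPase CDC42 and the gene with the smallest p, measured 80.6, 72.4, 90, 67 and 80.4 CPM in the KCL-HO-1i tumours and 244, 125, 93.9, 193 and 203 CPM with 5-FU, at 1.14 ± 0.20 (SE), adjusted p = 0.087 (edgeR adjusted p = 0.087, DESeq2 adjusted p = 9.27e-05). Grb2, the adaptor that links receptors to RAS and binds complexes of middle T, measured 95.1, 95.2, 95.7, 82.6 and 106 CPM and 405, 112, 122, 221 and 225 CPM, at 1.19 ± 0.25 (SE), adjusted p = 0.102. Smurf2, a ubiquitin ligase of the TGF-beta pathway, measured 103, 82.5, 86.5, 89.7 and 103 CPM and 315, 116, 118, 262 and 288 CPM, at 1.24 ± 0.25 (SE), adjusted p = 0.102. In all 8 genes, KCL-HO-1i/5-FU replicates 1, 4 and 5 held the 3 highest values of the 10. Chromosome 11 held 189 of the 1014 higher genes with a position (18.6%), against 8.45% of tested genes and 6.44% of lower genes. Erbb2 and Itgb4, above, are on this chromosome as well, with peaks of 241 CPM in replicate 1 and 476 CPM in replicate 4. Without its genes, 831 were higher and 1206 lower.

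Of the other named genes, Nab2, a repressor of EGR factors on chromosome 10, was 48.1, 52.5, 63.24, 46.4 and 61.5 CPM in the KCL-HO-1i tumours and 104, 79.2, 102, 68.4 and 121 CPM with 5-FU. No tumours overlapped, and it was 0.81 ± 0.16 (SE), adjusted p = 0.102, with a limma-voom adjusted p of 0.0146. Igip was 0.81 ± 0.18 (SE), adjusted p = 0.102, with a single tumour with 5-FU, replicate 4, in the other range. Among the lower genes, Myb, a transcription factor of progenitor cells, measured 6.31, 4.1, 3.06, 5.67 and 8.58 CPM and 1.13, 1.19, 1.85, 3.13 and 1.8 CPM. Only KCL-HO-1i/5-FU replicate 4 touched the other group, at -1.60 ± 0.36 (SE), adjusted p = 0.102. Zbtb40 and Asnsd1 were -0.68 and -0.49, without overlap. DESeq2 and limma-voom shared 19 calls, and 2 of these not named above, both chosen after their values were seen, were Ephx1, a detoxifying epoxide hydrolase, and Hmgb2, a chromatin protein of dividing cells. Ephx1 was 109.8, 111, 111, 66.4 and 139 CPM and 266, 302, 191, 266 and 241 CPM, and Hmgb2 260.1, 209, 208, 212 and 277 CPM and 109, 63.9, 92.3, 134 and 127 CPM. Neither overlapped, at log2 fold changes of 1.24 and -1.15.

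Whether the differences belonged to tumours that had the inhibitor was asked by setting 5-FU against vehicle from the same fit. The groups of that pair share no mouse code number. That comparison had no gene past adjustment in edgeR. The interaction had none either (smallest adjusted p 0.42), with 550 genes higher (4.03%) and 616 lower (4.51%) before adjustment, none by limma-voom, which had 1944 before adjustment, and 22 by DESeq2 (0.162%). Across the genes tested, which are not independent replicates, the log2 fold changes of both comparisons had a Pearson correlation of -0.0466 and a Spearman correlation of 0.137. By the smallest p, the interaction was highest for Smurf2 (1.54), Nab2 (0.93) and Igip (0.97), and lowest for Myb (-2.13), Ndufaf7 (-0.54) and Ucp1, the last of which rests on KCL-HO-1i replicate 4. 5-FU alone gave 0.53 for Myb and 0.17 for Ndufaf7 against vehicle, opposite in sign to the values with the inhibitor.

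**Figure D5:**
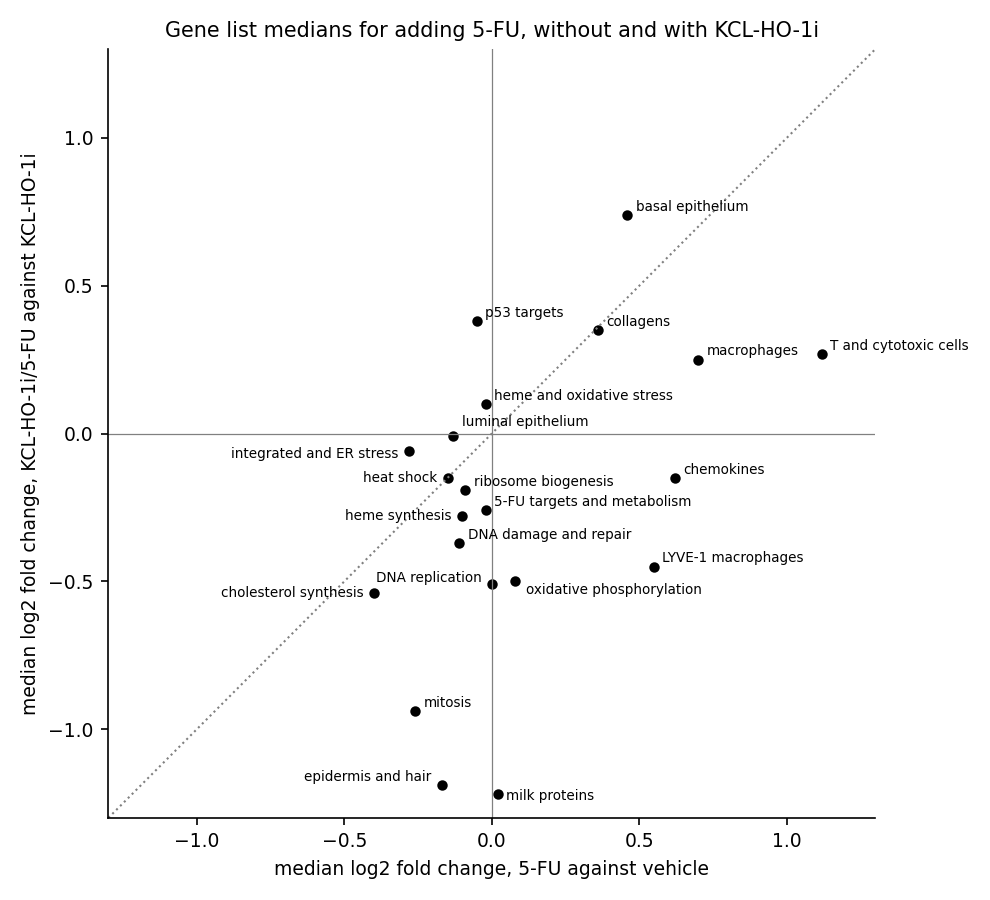
Median log2 fold change of each list for adding 5-FU without the inhibitor (horizontal axis, against vehicle) and with it (vertical axis), with a point for each of 21 lists, a dotted line where both are equal, and 4 further lists (skeletal muscle, white and brown adipocytes, and mast cells and eosinophils) beyond the axes and not drawn. The p53 list lies at -0.05 and 0.38, the mitosis list at -0.26 and -0.94, and the cholesterol list at -0.40 and -0.54.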

How the data were processed

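Gene expression was measured by strand-specific bulk RNA sequencing of mammary tumours. The authors deposited 1 table of estimated counts per gene for all 30 libraries, made, by their methods and processing notes, with FastQC 0.11.9, STAR 2.7.9a, Salmon 1.9.0 and tximport on GRCm38. The methods speak of TPM, but the columns do not share a sum and 38% of the values are not whole, so they were read as estimated counts and rounded. Of 21841 genes, 13663 passed the filter of edgeR 4.0.16 for low counts (minimum 10 in enough libraries). A quasi-likelihood model with TMM scaling and 6 group means was fitted over all 30 libraries in R 4.3.3, with Benjamini-Hochberg adjustment over all genes tested. CPM are per effective library size, and log2 CPM use a prior count of 2. A floor of 3 reads was 0.215 to 0.298 CPM in these 10 libraries and covers counting error only.

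Alternatives were RLE scaling, DESeq2 1.42.0, limma-voom (limma 3.58.1) with sample quality weights, other filters, only the groups compared, the mouse code number as a covariate, a block for the replicate number, and each tumour left out. Chosen after seeing the data were leaving out KCL-HO-1i replicate 4 together with KCL-HO-1i/5-FU replicate 3, and leaving out chromosome 11. The tools were tested on simulated data.

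Named genes were a fixed set (Hmox1, Hmox2, Lyve1, Mrc1, Cd8a, Gzmb, Ifng, Ccl21a, Cxcl12, Cxcl14, Tyms, Umps, Upp1, Dpyd, Cdkn1a and Mdm2), the 12 genes with the smallest p in each direction, up to 4 members with the smallest p of each list described, and 3 per direction for the interaction. A few genes that this rule names are not reported here, and other genes given with values were chosen after their values were seen. The 40 gene lists were chosen with earlier results of these data known, and the mitochondrial ribosomal and aminoacyl-tRNA synthetase lists after the data were seen. Libraries with the same replicate number had correlated deviations over 0.1 in only 2 of 5 pairs (mean 0.146), so the numbers were not taken to pair the tumours. No libraries of a group were duplicates, the lowest chi-square per degree of freedom being 33.5 over 20 pairs. Promoter windows and gene coordinates are from RefSeq on GRCm38.p6. Plots were drawn with matplotlib.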

Additional observations from a re-analysis of the deposited data

Results flagged for a closer look

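In 37 of 330 groups of 5 tumours the highest or lowest tumour lay far from the rest, with a gap over 0.71 of the whole range. Chance flags about 1 in 20 groups of values chosen without regard to the result. That rate does not apply here, since many of the genes were named by their p or after their values were seen. Genes of a tissue also move together. KCL-HO-1i replicate 4 accounted for 17 of these and KCL-HO-1i/5-FU replicate 3 for 11.

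KCL-HO-1i replicate 4 stood out in mitochondria and fat. Its share of counts from mitochondrially encoded genes was 9.69%. It had 4070 CPM of Gpd1, 142 CPM of Cox7a1, 210 CPM of Uck1, 69.6 CPM of Fdft1, 32.5 CPM of Alas1, 718 CPM of Hspd1 and 100 CPM of Phlda3, each above the other KCL-HO-1i tumours. Its levels of respiratory chain genes were 350 CPM for Ndufa10, 477 CPM for Uqcrfs1 and 316 CPM for Ndufa9, and the mean of the oxidative phosphorylation list was 8.34 log2 CPM against 7.19 to 7.39 in its group. Skin and hair genes were also high there, with Tchh at 518 CPM, Dsg1a at 14.3 CPM, Krt71 at 34.4 CPM and Krt27 at 41.3 CPM. Sap30bp was low, at 35.6 CPM.

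KCL-HO-1i/5-FU replicate 3 was highest in its group for Slc40a1 (250 CPM), Vcan (251 CPM), Cxcl5 (16.7 CPM), Cx3cl1 (264 CPM), Col4a5 (392 CPM), Nupr1 (287 CPM) and Gdf15 (6.78 CPM), and lowest for Zbtb40 (10.7 CPM) and Asns (17.5 CPM). Its mean was 7.09 log2 CPM for the heme and oxidative stress list, against 6.16 to 6.33 in its group, and 1.2 log2 CPM for the brown adipocyte list, against 0.23 to 0.51.

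Single values elsewhere were Sesn2 at 34.4 CPM and Vcan at 6.6 CPM in KCL-HO-1i replicate 5, Nbn at 33.5 CPM in KCL-HO-1i replicate 1, Hmox2 at 57.7 CPM in KCL-HO-1i/5-FU replicate 4, and Mafg at 180 CPM in KCL-HO-1i/5-FU replicate 5. In KCL-HO-1i/5-FU replicate 1, Krt17 was at 315 CPM, while Mybpc1 (0.151 CPM), Dsg1a (0.0754 CPM) and Krt27 (0.302 CPM) rest on a few reads against none in the rest of the group.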

How the results depend on the processing

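The absence of genes past adjustment was tied to the tool and the tumours. Instead of 0, DESeq2 gave 390 genes, limma-voom 21, the fit of only the groups compared 1, and leaving out a tumour 0 to 15, with 15 when replicate 2 or replicate 3 of the KCL-HO-1i/5-FU group was missing. The 1020 higher and 1288 lower genes ranged over 783 to 1107 and 813 to 1269 when a tumour was left out, the lowest of the latter without KCL-HO-1i replicate 4. Leaving out that tumour together with KCL-HO-1i/5-FU replicate 3 gave 604 and 597, with 1 past adjustment, and the mouse code number as a covariate gave 650 lower. DESeq2 gave 22 genes for the interaction. With the replicate number as a block, which does not pair the tumours, no gene passed adjustment and 883 were higher and 1157 lower. The other settings left these counts within 1.5 times.

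Among 139 named genes and 2610 alternative values, 2512 kept direction and side of the adjusted threshold, 80 passed it and 18 reversed, over 10 genes that were not past adjustment. The cause of these moves was not tested, apart from the tumours left out. Hmox1 ranged over -0.0705 to 1.62 with a tumour left out, the lowest without KCL-HO-1i/5-FU replicate 3. Gzmb was 0.07 to 0.75, and -0.10 without both uneven tumours. Ccl21a was -0.29 to 1.82, -0.15 in limma-voom and -0.59 without both. Cxcl12 ranged over -0.96 to 0.63 and was 0.22 with the code. Cxcl14 was 0.21 with the code. Areg was 0.23 in limma-voom. Dpyd ranged over -0.19 to 1.01 and Birc5 over -0.69 to 0.0227. Krt17 ranged over -0.0815 to 2.83 and was 3.09 without both, and Tchh ranged over -5.61 to 0.11 and was 0.34 without both.

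Of list counts, the mouse code covariate gave 2 lower 5-FU targets, 3 repair genes, 8 cholesterol genes, 22 oxidative phosphorylation genes and 8 mitochondrial ribosomal genes, and limma-voom gave 19 oxidative phosphorylation, 6 white adipocyte and 0 brown adipocyte genes. At these depths genes near 3 reads, such as Ifng, cannot be compared.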

Other observations

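The remaining lists fixed for the tissue showed few differences. Interferon-stimulated genes had 1 of 30 lower, with a median of 0.14, and MHC class I and interferon-gamma response genes had none of 23 in either direction, with a median of 0.23. MHC class II and dendritic cell genes had 1 of 15 lower, neutrophil genes none of 12, and the 2 B cell genes tested did not pass. Hypoxia and glycolysis genes had 1 of 26 lower, with a median of 0.01. Adding 5-FU without the inhibitor had 6 of them lower, against 2.24% of all genes, with a median of -0.58.

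Cytosolic ribosomal protein genes were slightly lower in nearly all cases, since 42 of 44 had a negative log2 fold change with a median of -0.18, but 1 was lower and 1 higher by the unadjusted test, and 10 were lower without KCL-HO-1i replicate 4. RNA exosome genes had 3 of 15 lower, with a median of -0.13. Mitochondrially encoded proteins had 2 of 13 lower, with a median of -0.59, which was 0.09 without that tumour, when none was lower. Stromal lists were mixed, with 2 higher and 1 lower of 31 fibroblast genes, 3 and 1 of 18 pericyte and smooth muscle genes, 1 and 1 of 31 blood vessel genes, none and 1 (Lyve1) of 8 lymphatic genes, 2 and 1 of 11 nerve and glia genes, and none of 5 erythroid genes.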
